A study of Mus musculus with 4 samples.

Results

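Vip interneurons, the inhibitory cortical neurons that make vasoactive intestinal peptide, were taken from single-nucleus RNA sequencing of mouse cortex and compared between pregnant and non-pregnant females. A nucleus was counted as a Vip nucleus when it held at least 2 UMIs (unique molecular identifiers, which count captured RNA molecules) of Gad1 and Gad2 together, at most 1 of Slc17a7, at least 5 of Adarb2, at least 2 of Vip and at most 3 of Sst. The rule took 389 of 26350 nuclei that had at least 500 detected genes and at most 5% mitochondrial UMIs. It uses measured values of 6 genes, so the levels of those genes are given as a description and none of them was tested. All mice were wild-type C57BL/6JRj females of about 12 weeks. The 2 control libraries came from females that were not pregnant, and the other 2 from females killed at E13.5 after timed mating. Nuclei were released from microdissected cortex in buffers with actinomycin D, a transcription inhibitor. The labels call the libraries of a group biological replicates, do not say whether each held tissue of 1 mouse, and do not name the cortical area, so p-values measure the spread between these libraries.

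Vip interneurons arise in the caudal ganglionic eminence, an embryonic source of inhibitory neurons marked by the transcription factors Prox1 and Nr2f2, and in mature cortex they express the RNA-editing family gene Adarb2. They are known for disinhibition: much of their output goes to other interneurons, among them the Sst cells that inhibit dendrites of pyramidal neurons. Their best known subgroups make calretinin (Calb2) or cholecystokinin (Cck) beside VIP, and some cortical Vip cells also make acetylcholine through choline acetyltransferase (Chat). Long-range inputs reach them through nicotinic acetylcholine receptors and the ionotropic serotonin receptor Htr3a.

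The 4 libraries held 26816 barcodes and 423916014 UMIs, with between 6262 and 6845 kept nuclei each. Non-pregnant replicate 2 was the deepest, with a median of 17723 UMIs per barcode against 13188 to 14331 in the others. Between 16 and 27 barcodes of kept nuclei occurred in both libraries of a pair, and no barcode of a Vip nucleus did.

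The markers that name these nuclei were present. Vip reached 1094, 593, 794 and 957 CPM (counts scaled to a common total) in the summed Vip nuclei of non-pregnant replicates 1 and 2 and pregnant replicates 1 and 2, and between 2.43 and 7.89 CPM in Sst, Pvalb and excitatory nuclei. Sst and Pvalb nuclei were taken with at most 1 Vip and 4 Adarb2 UMIs, so their low Vip level follows from that rule. Prox1, which the rule did not use, stood at 274, 253, 228 and 244 CPM, and had a UMI in 252 of 377 Vip nuclei thinned to 5000 UMIs each. Among Sst nuclei thinned in the same way 0 of 376 had a Prox1 UMI, and without thinning 2 of 81, 0 of 77, 1 of 118 and 2 of 100 had one. The caudal eminence factors Nr2f2 (35.9 to 49.4 CPM) and Npas1 (54.9 to 83.1 CPM) were also present in every library. Other Adarb2 nuclei held Prox1 too, at 107, 103, 95.5 and 133 CPM, with a UMI in 205 of 555 thinned nuclei. They held 31.3 to 49.2 CPM of Nr2f2, so Nr2f2 does not separate Vip from other Adarb2 nuclei. In Sst nuclei Nr2f2 stood at 2.63 to 9.06 CPM, but Npas1 at 42.3 to 67.6 CPM, so Npas1 does not separate Vip from Sst nuclei. Lhx6, the factor of medial eminence interneurons, was low at 0.981 to 4.75 CPM, against 38.7 to 77.8 CPM in Sst and Pvalb nuclei. The defining genes Pvalb and Lamp5 were themselves low: Pvalb stood at 1.77 to 3.96 CPM and Lamp5 at 5.30 to 14.2 CPM against 89.5 to 130.5 CPM in other Adarb2 nuclei. The Lamp5 list as a whole gave 858 and 970 CPM in Vip nuclei of non-pregnant replicates 1 and 2 and 764 and 1093 CPM in those of pregnant replicates 1 and 2. In the same order 12, 12, 6 and 10 Vip nuclei held 20 or more UMIs of that list. Sncg had no UMI in Vip nuclei and at most 0.469 CPM in other Adarb2 nuclei, so it does not separate these classes, and the Sncg list as a whole gave 619 to 856 CPM in Vip nuclei.

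The Adarb2 threshold did not cut through a population, because no nucleus that met the other criteria had 3 to 9 Adarb2 UMIs. There was no such gap at the Vip threshold, with 69 nuclei just outside it at 1 Vip UMI and 38 just inside it at 2. The nuclei at 1 UMI had median Adarb2 counts of 79.0 to 122 per library, and those at 2 UMIs 81.0 to 104. All Vip nuclei had medians of 130.5 to 196. At least 1 Vip UMI was also held by 11.8% and 7.61% of excitatory nuclei of non-pregnant replicates 1 and 2. Whether the nuclei at 1 UMI are Vip cells was not tested. A further 67 nuclei met the Vip and Adarb2 thresholds with 0 or 1 Gad1 and Gad2 UMIs, as many as stood just inside at 2. Another 18 nuclei had 2 or 3 Slc17a7 UMIs and were left out, and 58 of the Vip nuclei held 1.

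**Figure D1:**
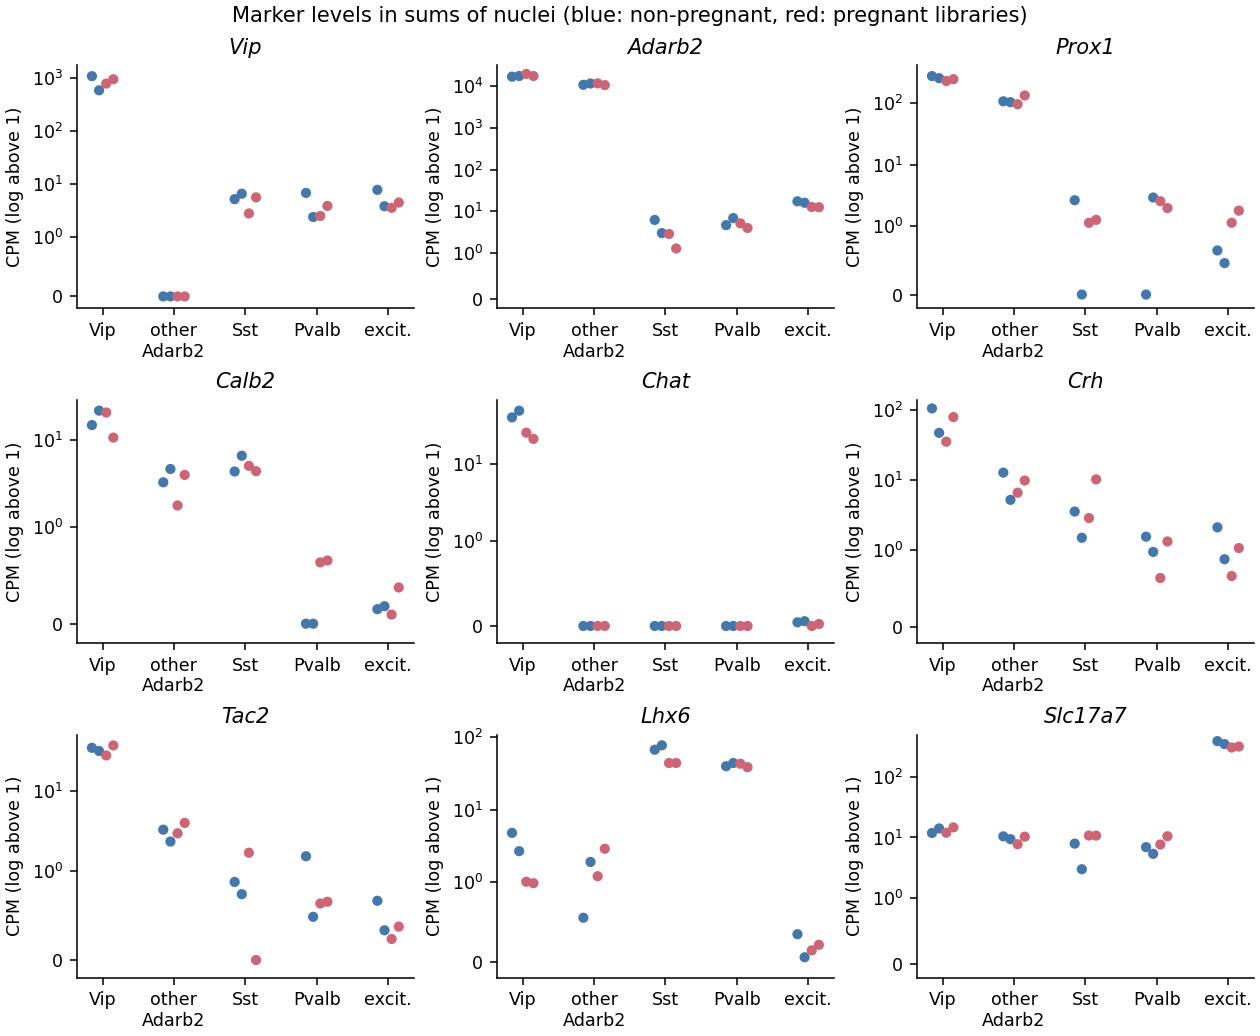
Levels of 9 genes in counts summed over the nuclei of 5 classes, in CPM on an axis that is logarithmic above 1, with 1 point per library (blue non-pregnant, red pregnant). Vip nuclei hold 593 to 1094 CPM of Vip and 228 to 274 CPM of Prox1, and Chat is 0 in the other inhibitory classes. By the rules of the classes, Vip was 0 in other Adarb2 nuclei, and Sst and Pvalb nuclei held at most 1 Vip and 4 Adarb2 UMIs each.

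The share of Vip nuclei did not separate the groups. The rule took 122 and 83 non-pregnant and 90 and 94 pregnant nuclei, which was 1.78% (Wilson 95% interval 1.49 to 2.12) and 1.33% (1.07 to 1.64) of kept nuclei against 1.37% (1.12 to 1.68) and 1.41% (1.15 to 1.72). The intervals cover counting error only. The means were 1.55% ± 0.323 and 1.39% ± 0.0233 (SD, n = 2 each), and both pregnant libraries lay between the non-pregnant ones (exact two-sided permutation p = 1.0, where the smallest p that 2 against 2 libraries allow is 0.3333). Of all inhibitory nuclei they were 16.8% and 12.7% in non-pregnant and 13.2% and 14.1% in pregnant libraries, again without separation (exact permutation p = 1.0). The median Vip nucleus held 9527 and 12706 UMIs in non-pregnant and 9642 and 10024 in pregnant libraries, so non-pregnant replicate 2, with the smallest share, was the deepest.

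Beyond its rule genes the class carried a set of genes at higher levels than the other neuron classes, given here as a description because the nuclei were chosen by expression. These genes were ranked by their lowest ratio over libraries of the level in Vip nuclei to the highest level in other Adarb2, Sst, Pvalb or excitatory nuclei. Col15a1, a collagen of basement membranes, led after Vip with 75.2, 82.1, 43.9 and 89.2 CPM, at least 27.4 times the next class in each library. Chat, described with the subgroup markers, came next, and Grpr, the receptor of gastrin-releasing peptide, followed at 59.8 to 75.9 CPM and Cftr, a chloride channel, at 24.0 to 50.3 CPM. The peptide gene Tac2 (28.0 to 37.3 CPM), the synapse organiser Cbln2 (44.1 to 63.7 CPM), Vwc2l (350 to 432 CPM), the growth factor gene Angpt1 (54.7 to 111 CPM) and the Wnt ligand Wnt5b (118 to 153 CPM) came next. Htr2c, a serotonin receptor, was at 279 to 361 CPM against at most 72.4 CPM in another class. For each of these genes the lowest library of Vip nuclei lay above the highest of every other class.

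Vip nuclei were not uniform. Once each nucleus was thinned to 5000 UMIs, counts of Kirrel3, an adhesion gene of the immunoglobulin family, had a variance 16.1 to 19.6 times their mean in the 4 libraries, and only 45.3% to 63.0% of nuclei held a UMI. Cadps2, which primes dense-core vesicles, was more restricted, with a UMI in 17.3% to 27.9% of nuclei and a variance 12.4 to 16.6 times the mean. The metabotropic glutamate receptor Grm8 was present in 45.3% to 51.6% of nuclei with a variance 9.46 to 10.3 times the mean. These 3 genes were singled out after their values were seen.

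Subgroup markers were found in a minority of nuclei each. After thinning, which left out 12 shallower nuclei, a UMI of the stress peptide gene Crh was seen in 78 of 377 Vip nuclei, of Cck in 59, of Tac2 in 57, of Chat in 54, of Htr3a in 46, of the neuropeptide Y receptor Npy2r in 42, of Calb2 in 30 and of the opioid peptide gene Penk in 28. Calb2 and Cck shared 7 nuclei, Calb2 and Crh shared 2, and Crh and Cck shared 20. Low detection of each marker also keeps such counts low, and whether they differ from those of independent markers was not tested. Chat had no UMI in 555 other Adarb2, 376 Sst and 338 Pvalb nuclei thinned alike, which allows shares with a UMI at that depth of up to 0.541%, 0.798% and 0.888%. This limits nuclei with a Chat UMI and not nuclei that express the gene, and without thinning no nucleus of these classes held one either. A Cck UMI was held by 8.64% to 17.6% of Vip nuclei and by 7.32% to 19.8% of Pvalb nuclei, so the shares overlap. Its level was 41.1, 25.6, 38.9 and 36.3 CPM in Vip nuclei, 22.2, 13.1, 17.2 and 27.5 CPM in Pvalb nuclei and 44.3, 24.2, 33.7 and 42.1 CPM in excitatory nuclei, and how much of it was free RNA was not tested.

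Of the 8 markers, Chat had the largest difference between groups relative to its spread. A Chat UMI was present in 17.6% (21 of 119) and 17.3% (14 of 81) of Vip nuclei of the non-pregnant libraries and in 11.6% (10 of 86) and 9.89% (9 of 91) of the pregnant ones. The groups did not overlap, with means of 17.5% ± 0.257 and 10.8% ± 1.23 (SD, n = 2 each), but the exact permutation test could not go below 0.3333 and gave that value (adjusted over the 8 markers, 0.889). Without thinning the means were 25.1% and 16.3%. In sums of counts Chat stood at 41.6, 52.4, 27.0 and 21.5 CPM, a log2 fold change of -0.95 (SE 0.265) that did not pass edgeR's quasi-likelihood test (adjusted p = 0.694). Slc18a3 and Slc5a7, the vesicular acetylcholine and choline transporters, gave 0, 3, 0 and 1 UMIs and 33, 16, 21 and 14 UMIs in the same order.

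Htr3a and Penk also kept the groups apart at a smaller difference. Htr3a was found in 13.4% and 13.6% of non-pregnant against 9.30% and 12.1% of pregnant nuclei, and Penk in 7.56% and 4.94% against 8.14% and 8.79% (exact permutation p = 0.3333 for both, adjusted 0.889). Among nuclei with at least 5 Vip UMIs neither separated the groups, with Htr3a at 14.8% and 13.6% against 13.3% and 14.5% and Penk at 9.09% and 4.55% against 6.67% and 10.1%. Crh ranged as widely within a group as between groups, at 27.7% and 14.8% against 9.30% and 27.5%. Calb2, Cck, Tac2 and Npy2r overlapped between groups as well. In sums of counts, the groups did not overlap for 17.1% of all genes on the higher and 17.6% on the lower side. Separation as seen for Chat, Htr3a and Penk is therefore common among genes here. With so few nuclei the intervals of single libraries were wide, for Chat 11.8% to 25.5% in non-pregnant replicate 1 and 5.29% to 17.7% in pregnant replicate 2.

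**Figure D2:**
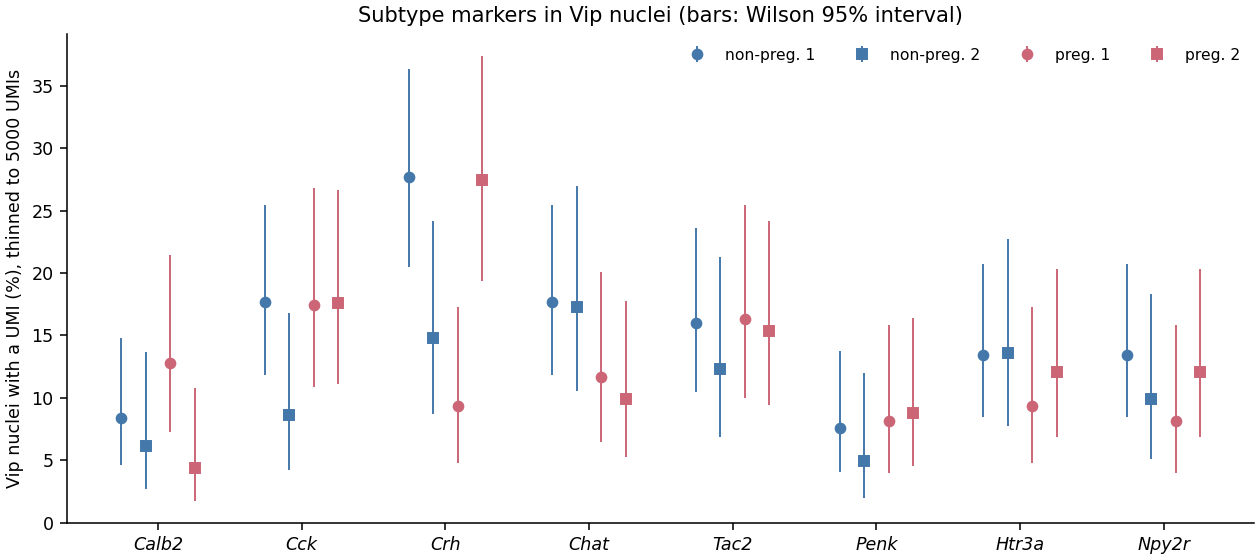
Percent of Vip nuclei with at least 1 UMI of 8 subgroup markers after thinning to 5000 UMIs per nucleus, 1 point per library with its Wilson 95% interval. Both pregnant libraries lie below both non-pregnant ones for Chat (11.6% and 9.89% against 17.6% and 17.3%) and Htr3a, above them for Penk, and among them for the other 5 markers. In sums of counts, groups did not overlap for 17.1% of all genes on the higher and 17.6% on the lower side.

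Transcripts of other cell types in the summed Vip nuclei were measured before genes were compared. Of 12 marker lists, the summed level of 4 was higher in both pregnant libraries, that of 2 was lower in both, and 6 overlapped. Haemoglobin genes gave 3.16 and 0 CPM in non-pregnant and 28.0 and 25.5 CPM in pregnant libraries, with 3, 0, 4 and 3 of 4 members detected. Oligodendrocyte markers gave 104, 63.6, 145 and 197 CPM, excitatory markers other than Slc17a7 gave 577, 428, 591 and 593 CPM, and vessel markers 6.33, 10.6, 12.0 and 10.8 CPM with Cldn5 and Mecom at 0 in all. Markers of Sst neurons other than Sst itself gave 342, 290, 250 and 247 CPM with Chodl at 0 throughout, and microglial markers 94.9, 92.7, 74.9 and 91.2 CPM. The median Vip nucleus held 0 to 2 UMIs of the Sst, oligodendrocyte, microglial and haemoglobin lists, and the sums rested in part on single nuclei with up to 67, 82, 34 and 3 UMIs of these lists.

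Few genes of Vip nuclei differed between pregnant and non-pregnant mice beyond the spread of the libraries. edgeR's quasi-likelihood test called 4 of 9292 genes at an adjusted p under 0.05, which is 0.0430% of them. Vcan, Sntb1 and Norad rose (0.0323% of genes) and Unc13c fell (0.0108%). An unadjusted p under 0.05 was reached by 5.75% of genes, 2.93% on the higher and 2.82% on the lower side. The groups did not overlap in 17.1% of genes on the higher and 17.6% on the lower side, and the median log2 fold change was -0.0027. DESeq2 called only Unc13c. In a bulk sum, fewer nuclei with a gene and less RNA per nucleus cannot be told apart, so the nuclei behind each called gene are given.

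**Figure D3:**
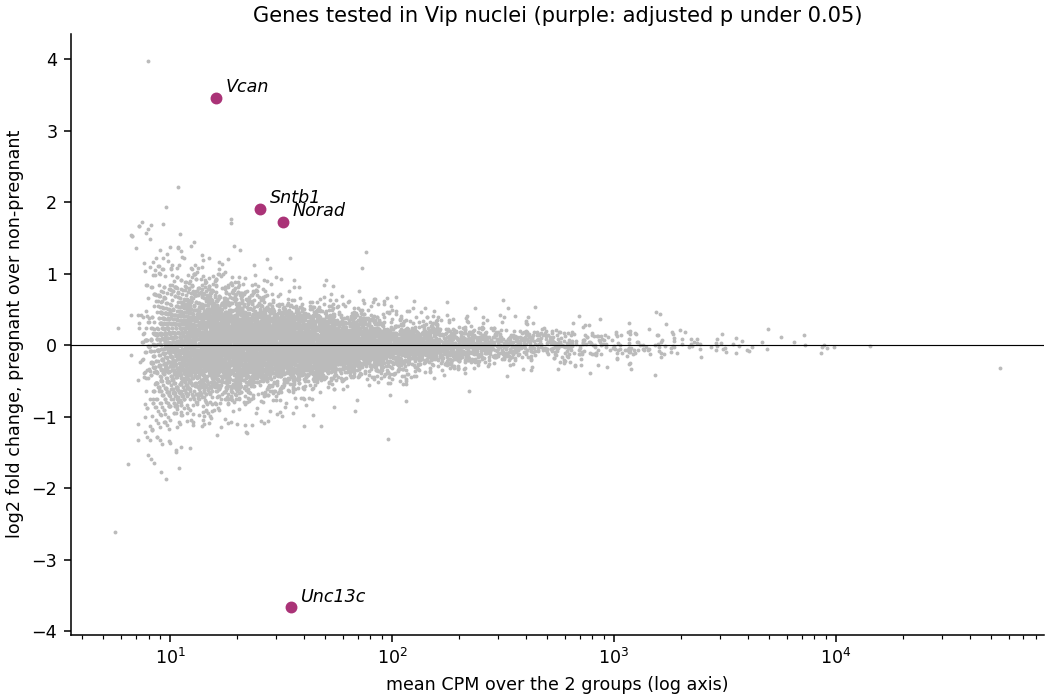
Pregnancy effect in Vip nuclei (log2 fold change against non-pregnant) plotted over mean level in CPM (log axis), 1 point per gene tested, with the 4 genes at an adjusted p under 0.05 in purple. Vcan (3.46), Sntb1 (1.90) and Norad (1.72) lie above and Unc13c (-3.66) below a cloud that narrows with level.

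Norad, a long noncoding RNA that binds the RNA-binding Pumilio proteins, rose across many Vip nuclei. It gave 20 and 15 UMIs in non-pregnant and 58 and 40 in pregnant libraries, or 16.0, 13.8, 60.3 and 39.2 CPM normalised by edgeR's TMM, so both pregnant libraries were higher. The log2 fold change was 1.72 (SE 0.301, adjusted p = 0.0379 by edgeR). A Norad UMI was held by 18 of 122 and 14 of 83 non-pregnant nuclei and by 39 of 90 and 34 of 94 pregnant nuclei, and no nucleus held more than 4. At a fixed 5000 UMIs per nucleus these shares were 9.24% and 2.47% against 23.3% and 27.5%, and there Norad was the only gene called (log2 fold change 2.18, SE 0.413, adjusted p = 0.0138 by edgeR). Without the 2 nuclei richest in each gene in every library the fold change was 1.89 and the adjusted p was 0.0557 by edgeR. The call was also lost without non-pregnant replicate 1, without non-pregnant replicate 2 and without pregnant replicate 1 (adjusted p = 0.262, 0.916 and 0.0824 by edgeR), at fold changes of 1.38 to 2.00 when a library was left out. Pum2, which encodes a Pumilio protein, was not called and stood at 94.4, 74.5, 98.7 and 98.9 CPM.

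Sntb1, which encodes beta-1-syntrophin, an adaptor of the dystrophin complex at the membrane, also rose. Its counts were 14, 11, 33 and 47 UMIs, or 11.2, 10.1, 34.3 and 46.0 CPM, and both pregnant libraries were above both controls. The log2 fold change was 1.90 (SE 0.322, adjusted p = 0.0333 by edgeR). Sntb1 was held by 7 and 7 nuclei in non-pregnant and by 15 and 16 in pregnant libraries, and without the 2 richest nuclei per library 5, 5, 23 and 28 UMIs remained (log2 fold change 2.58, SE 0.432, adjusted p = 0.0557 by edgeR). The Sntb1 call did not hold without non-pregnant replicate 1 or 2 (adjusted p = 0.227 and 0.702 by edgeR), with DESeq2 or after thinning, where the log2 fold changes were 1.97, 1.83, 1.91 and 1.92. Among nuclei with no Slc17a7 UMI it was 1.41, also without a call. The 14 genes of the syntrophin and dystrophin list were all tested, and Sntb1 was the only one called, against 0.0430% of all genes. Dmd, which encodes dystrophin, stood at 717, 763, 797 and 702 CPM, and the gamma syntrophin Sntg1 at 2620, 3049, 3049 and 2971 CPM.

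Unc13c, a gene of the Munc13 family that primes synaptic vesicles for release, fell in the sums, where most of its UMIs lay in a few nuclei. Its counts were 88 and 65 UMIs in non-pregnant and 7 and 3 in pregnant libraries (70.4, 59.7, 7.27 and 2.94 CPM; log2 fold change -3.66, SE 0.357, adjusted p = 3.05e-05 by edgeR). In non-pregnant replicate 1 the 2 richest nuclei held 46 and 19 of the 88 UMIs, and in non-pregnant replicate 2 they held 48 and 16 of the 65. Those 4 nuclei were also the 2 with the most Sst-list UMIs of their library (67 and 38, 37 and 65, against a median of 2). Grin3a, a member of that list, gave 41, 21, 27 and 50 of these UMIs in the same order. The 4 nuclei held 1 to 3 Lhx6 UMIs beside 8 to 17 Vip UMIs, and had 22472 to 36679 UMIs in all. None of them was among the 5% highest doublet scores of its library. Sst nuclei themselves held 651, 765, 702 and 685 CPM of Unc13c. Apart from the 2 richest nuclei, 23, 1, 2 and 0 Unc13c UMIs remained, too few to be tested, and with only the richest nucleus of each library left out the log2 fold change was -3.24 (SE 0.590, adjusted p = 0.0840 by edgeR).

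Vcan, which encodes the matrix proteoglycan versican, rose in the same restricted way. It gave 3 and 3 UMIs in non-pregnant and 37 and 21 in pregnant libraries (2.40, 2.76, 38.4 and 20.6 CPM; log2 fold change 3.46, SE 0.510, adjusted p = 0.00825 by edgeR). A single nucleus held 30 of the 37 UMIs of pregnant replicate 1 and another 15 of the 21 of pregnant replicate 2. These nuclei led their libraries in UMIs of the oligodendrocyte precursor list, with 105 and 25 against a median of 1. Vcan is itself a member of that list and gave 30 and 15 of these UMIs. The highest nucleus of non-pregnant replicate 2 held 18 UMIs of the list. The leading nuclei of pregnant replicates 1 and 2 held 19 and 2 Vip and 148 and 49 Adarb2 UMIs. Without the 2 richest nuclei 1, 1, 5 and 3 UMIs remained. When nuclei with 1 Vip UMI were admitted, the log2 fold change was 0.60 (SE 0.327, adjusted p = 0.982 by edgeR), and other Adarb2 nuclei held 162, 192, 214 and 183 CPM of Vcan. The call was lost without either non-pregnant library or pregnant replicate 1 (adjusted p = 0.168, 0.384 and 0.0901 by edgeR), at log2 fold changes of 3.35, 3.55 and 2.95.

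Nuclei with 20 or more UMIs of the Sst, Pvalb, excitatory, astrocyte, oligodendrocyte, precursor or microglial list were left out in an alternative chosen after the data were seen, which kept 114, 79, 84 and 89 Vip nuclei. edgeR then called 0 genes, with 457 at an unadjusted p under 0.05. Sntb1 kept a log2 fold change of 2.09 (adjusted p = 0.0725 by edgeR) and Norad 1.71 (adjusted p = 0.220), and Unc13c and Vcan had too few counts to be tested. Leaving out each gene's 2 richest nuclei likewise gave 0 calls, with 427 genes at an unadjusted p under 0.05. DESeq2 was run on all Vip nuclei only, where it called 1 gene.

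**Figure D4:**
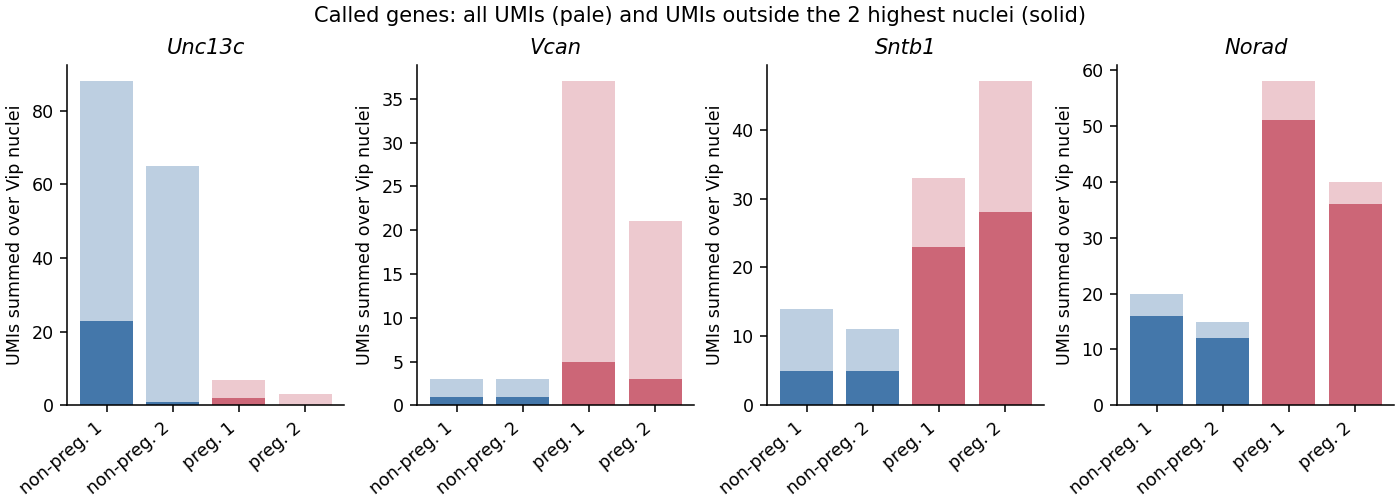
UMIs of the 4 called genes summed over the Vip nuclei of each library (blue non-pregnant, red pregnant), with the part outside the 2 richest nuclei in solid colour. Solid bars of Norad (16 and 12 against 51 and 36) and Sntb1 (5 and 5 against 23 and 28) keep the separation, whereas at most 23 UMIs of Unc13c and 5 of Vcan lie outside the 2 richest nuclei.

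Among Vip subgroup markers 24 of 38 genes were tested and 0 were called (edgeR's quasi-likelihood test), against 0.0430% of all genes. The median log2 fold change was -0.15, the groups did not overlap for 3 members on the higher and 6 on the lower side (17.1% and 17.6% of all genes), and 4 had an unadjusted p under 0.05 (5.75% of all genes). Chat and Htr3a were lower in both pregnant libraries and Penk higher, at 14.4, 7.35, 18.7 and 25.5 CPM (log2 fold change 0.99, SE 0.391, adjusted p = 0.835 by edgeR). Rspo1, a Wnt pathway agonist, stood at 12.0, 12.9, 7.27 and 2.94 CPM. Of 26 genes tested from a list drawn up for caudal eminence transcription factors none was called either, and the group had a median log2 fold change of -0.058. Prox1 stood at 277, 264, 237 and 244 CPM and Npas3 at 3366, 3444, 3813 and 3092 CPM, whereas the chromatin organiser Satb1, a member of the Sst list too, was lower in both pregnant libraries at 59.2, 39.5, 32.2 and 27.4 CPM (log2 fold change -0.74, SE 0.263, adjusted p = 0.818 by edgeR). Sst nuclei held far more Satb1, at 396, 373, 409 and 325 CPM in the same order, so it does not mark the caudal eminence class here. For the lists that follow, 0.0430% of all genes is likewise the share called.

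Among genes of GABA handling and release Unc13c was the only one of 22 tested to be called, against 0.0430% of all genes. That call rested on the few nuclei described above. The median log2 fold change of the list was -0.045. Groups did not overlap for 3 members on the higher and 6 on the lower side (17.1% and 17.6% of all genes). Gad1, which the rule used, stood at 301, 206, 296 and 269 CPM and Gad2 at 236, 233, 241 and 260 CPM. The calcium sensor gene Syt1 stood at 3266, 3167, 3127 and 3129 CPM. Sv2b, a vesicle glycoprotein that is also on the excitatory list, was higher in both pregnant libraries at 12.0, 4.60, 32.2 and 26.4 CPM without passing the test (log2 fold change 1.77, SE 0.393, adjusted p = 0.300 by edgeR).

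Peptide genes and their processing enzymes gave 0 calls among 15 tested, at a median log2 fold change of 0.12. The prohormone convertase Pcsk1 was at 122, 76.3, 163 and 118 CPM and its relative Pcsk2 at 399, 419, 462 and 424 CPM, and the amidating enzyme Pam at 824, 844, 755 and 770 CPM. Vip itself, a gene of the rule, gave 1383, 672, 795 and 976 UMIs in all. Receptors of peptides gave 0 calls among 8 tested. Oprm1, the mu opioid receptor, was at 17.6, 18.4, 32.2 and 29.4 CPM, higher in both pregnant libraries (log2 fold change 0.77, SE 0.296, adjusted p = 0.835 by edgeR), and Vipr1, a receptor of VIP, was at 19.2, 11.0, 7.27 and 6.85 CPM, lower in both (adjusted p = 0.835 by edgeR).

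Receptors through which long-range inputs act gave no calls. For acetylcholine, 8 genes were tested: the nicotinic subunit Chrna5 was lower in both pregnant libraries at 33.6, 34.9, 20.8 and 21.5 CPM (log2 fold change -0.69, SE 0.279, adjusted p = 0.835 by edgeR), Chrna7 overlapped between groups at 154, 119, 211 and 129 CPM, and the muscarinic receptor Chrm3 stood at 1189, 1255, 1168 and 1109 CPM. For serotonin, 6 genes were tested: Htr3a was lower at 40.8, 34.9, 19.7 and 28.4 CPM (log2 fold change -0.65, SE 0.278, adjusted p = 0.835 by edgeR), while Htr2c was at 282, 376, 314 and 291 CPM and Htr4 at 154, 125, 135 and 147 CPM. For noradrenaline and histamine, 5 were tested, and Adra1a was at 206, 178, 228 and 259 CPM. Each of the 3 medians was within 0.17 of 0, at 0.014, -0.088 and -0.17.

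Receptors of fast transmission gave no calls. Of 15 GABA receptor genes tested 0 were called, at a median of -0.042, and the beta subunit Gabrb1 was higher in both pregnant libraries at 704, 692, 884 and 813 CPM (log2 fold change 0.28, SE 0.124, adjusted p = 0.839 by edgeR). Of 22 glutamate receptor genes 0 were called, at a median of 0.0025. Grin3a, an NMDA receptor subunit on the Sst list, had the smallest p after the 4 called genes, with 152, 140, 89.4 and 81.3 CPM (log2 fold change -0.78, SE 0.156, adjusted p = 0.136 by edgeR), and 2 nuclei held 62 of its 190 UMIs in non-pregnant replicate 1 and 77 of 152 in non-pregnant replicate 2. The kainate receptor subunit Grik3 was lower at 45.6, 34.9, 17.7 and 23.5 CPM and the metabotropic receptor Grm3 higher at 48.0, 29.4, 89.4 and 49.9 CPM, both with an adjusted p above 0.70 by edgeR.

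Hormone receptors relevant to pregnancy were low in Vip nuclei or did not pass the test. Prlr, the prolactin receptor, gave 0, 1, 0 and 1 UMIs and Oxtr, the oxytocin receptor, 3, 0, 3 and 1, both below the filter of the test. Of 20 hormone and growth factor receptor genes tested 0 were called, at a median log2 fold change of 0.022. Esr1, oestrogen receptor alpha, gave 36, 38, 19 and 15 UMIs, or 28.8, 34.9, 19.7 and 14.7 CPM, lower in both pregnant libraries (log2 fold change -0.88, SE 0.308, adjusted p = 0.790 by edgeR). The progesterone receptor Pgr was slightly higher in both pregnant libraries, at 52.8, 56.1, 60.3 and 61.7 CPM, by less than its error (log2 fold change 0.17, SE 0.202, adjusted p = 0.982 by edgeR). The glucocorticoid receptor Nr3c1 was at 150, 151, 211 and 139 CPM, the mineralocorticoid receptor Nr3c2 at 653, 688, 907 and 727 CPM and the relaxin receptor Rxfp1 at 175, 161, 145 and 131 CPM. Aromatase (Cyp19a1) had no UMI, and only 1 of 15 neurosteroid enzyme genes, Hsd17b12, was abundant enough to be tested (74.4, 68.0, 76.9 and 60.7 CPM).

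Of 16 tested genes that respond to neuronal activity 0 were called. Fos gave 41, 1, 30 and 26 UMIs, Npas4 11, 1, 19 and 7, and Arc 16, 1, 6 and 6, so non-pregnant replicate 2 was the low library for these 3 genes, of which Npas4 and Arc had too few counts to be tested. Groups did not overlap for 2 members on the higher and 1 on the lower side (17.1% and 17.6% of all genes). Jund was higher in both pregnant libraries at 12.8, 7.35, 17.7 and 17.6 CPM and Inhba lower at 23.2, 30.3, 19.7 and 16.6 CPM, with adjusted p = 0.898 and 0.917 by edgeR. The median log2 fold change was 0.29, with Fos itself at 0.67 (SE 1.26, adjusted p = 0.989 by edgeR). Of 6 glucocorticoid-induced genes tested 0 were called, among them Fkbp5 at 32.0, 32.2, 30.1 and 18.6 CPM and Sgk1 at 214, 213, 184 and 187 CPM. Of 14 clock genes 0 were called. Per2 was lower in both pregnant libraries at 40.0, 28.5, 18.7 and 23.5 CPM (log2 fold change -0.70, SE 0.295, adjusted p = 0.835 by edgeR).

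Ion channel genes gave no calls. None of 30 potassium channel genes was called, at a median of -0.028, and Dpp10, an auxiliary subunit of A-type channels, was higher in both pregnant libraries at 1232, 1510, 1930 and 1789 CPM (log2 fold change 0.44, SE 0.135, adjusted p = 0.705 by edgeR). None of 25 sodium, calcium and HCN channel genes was called, at a median of -0.016. Stac2, a regulator of calcium channels, was lower in both pregnant libraries at 50.4, 45.04, 28.1 and 24.5 CPM (log2 fold change -0.86, SE 0.251, adjusted p = 0.702 by edgeR), and so was the calcium channel subunit Cacna2d2 at 14.4, 19.3, 3.12 and 6.85 CPM. The sodium channel Scn8a stood at 219, 220, 161 and 191 CPM.

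Adhesion and guidance genes, which are among the most abundant transcripts of these nuclei, gave 0 calls among 33 synaptic adhesion genes and 0 among 43 cadherin and guidance genes, at medians of -0.0013 and 0.045. Nrxn3 was at 13870, 14754, 16946 and 11574 CPM and Tenm2 at 1261, 1334, 2034 and 1544 CPM, higher in both pregnant libraries for Tenm2 alone (log2 fold change 0.46, SE 0.141, adjusted p = 0.702 by edgeR). The ephrin receptor Epha4 (50.4, 50.6, 71.7 and 81.3 CPM) and its ligand Efna5 (126, 100.2, 154 and 160 CPM) were both higher in the pregnant libraries without passing the test. In the matrix list Vcan was the only one of 14 tested genes to be called, against 0.0430% of all genes. Col24a1 was lower in both pregnant libraries at 71.2, 108, 29.1 and 64.6 CPM (log2 fold change -0.92, SE 0.345, adjusted p = 0.835 by edgeR).

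Other cell types' markers contributed several of the next ranking genes. Hbb-bs, beta-globin, gave 2, 0, 14 and 16 UMIs in 2, 0, 12 and 15 nuclei (log2 fold change 3.97, SE 0.803, adjusted p = 0.136 by edgeR). Hbb-bs was also called in other Adarb2 (3.19), Sst (4.25) and excitatory nuclei (2.90), and not in Pvalb nuclei (2.53). Mbp, myelin basic protein, was at 24.0, 17.5, 42.6 and 54.8 CPM (log2 fold change 1.22, SE 0.273, adjusted p = 0.300 by edgeR), and in pregnant replicate 2 a pair of nuclei with 25 and 16 UMIs, both among the highest doublet scores, held most of its 56. The part of these markers in the differences of other genes was not tested.

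The pregnancy effect in Vip nuclei was then set against that in other interneurons of the same libraries, with the library as a block and a test of the difference. Against 570 other Adarb2 nuclei, which had no Vip UMI, 8 of 11103 genes differed (0.0721%), against 376 Sst nuclei 2 of 10339 (0.0193%), and against 339 Pvalb nuclei 1 of 10678 (0.00937%). Sst nuclei were taken as inhibitory nuclei with at least 1 Sst and 5 Grin3a UMIs, a definition set after the data were seen because 10 Sst UMIs were reached by only 3 nuclei. Unc13c was called in all 3 comparisons, at differences of -4.36, -3.65 and -7.23 on the log2 scale, and it was the only gene called against Pvalb nuclei. In Pvalb nuclei Unc13c stood at 0.767, 0.486, 12.1 and 4.59 CPM and in excitatory nuclei at 6.38, 4.02, 18.1 and 21.5 CPM, higher in both pregnant libraries of each. Once the 2 richest nuclei were left out in both classes, the Unc13c difference was -3.95 against other Adarb2 and -3.11 against Sst nuclei, without a call (adjusted p = 0.255 and 0.993 by edgeR), and it could not be tested against Pvalb nuclei.

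Within their own fits, edgeR called 0.256% of genes in other Adarb2, 0.250% in Sst, 0.139% in Pvalb and 1.06% in excitatory nuclei. Norad was among them in 3 of these classes. It rose in other Adarb2 nuclei (log2 fold change 1.19, SE 0.218, adjusted p = 0.00700 by edgeR), in Pvalb nuclei (1.56, SE 0.212, adjusted p = 0.00771) and in excitatory nuclei (1.34, SE 0.122, adjusted p = 0.00833), and was 1.54 (SE 0.356, adjusted p = 0.108) in Sst nuclei. The Vip effect exceeded these by 0.53 (SE 0.359) against other Adarb2, 0.18 (SE 0.376) against Pvalb and 0.23 (SE 0.388) against Sst nuclei, and none of these differences passed edgeR's test (adjusted p = 0.953, 0.994 and 0.999). These standard errors allow differences of the size of the smaller class effects. Sntb1 rose in excitatory nuclei too (2.01, SE 0.219, adjusted p = 0.0121 by edgeR), from 1.02 and 0.713 to 3.55 and 3.33 CPM, a far lower level than in Vip nuclei. Other interneuron classes held 0 to 3.44 CPM of Sntb1, too little for a test within them.

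Of the 8 genes that separated Vip from other Adarb2 nuclei, 7 had a lower pregnancy effect in Vip nuclei. In other Adarb2 nuclei these 7 had log2 fold changes of 0.69 (Unc13c) to 1.64 (Il1rapl2), and 3 of them were called there. The cadherin gene Cdh12 stood at 567, 750, 537 and 666 CPM in Vip nuclei (log2 fold change -0.13, SE 0.149), but rose in other Adarb2 nuclei from 60.4 and 92.9 to 172 and 135 CPM (0.99, SE 0.165, adjusted p = 0.0108 by edgeR), a difference of -1.14 (SE 0.185, adjusted p = 0.00608). Satb1 and Kctd8, an auxiliary subunit of GABA-B receptors, likewise rose in other Adarb2 nuclei (1.12 and 1.07, adjusted p = 0.0243 for both by edgeR), and stood at log2 fold changes of -0.74 and -0.98 in Vip nuclei. Cdh9 was at 179, 178, 179 and 82.3 CPM in Vip and 102, 132, 253 and 168 CPM in other Adarb2 nuclei, a difference of -1.35 (SE 0.190, adjusted p = 0.000256 by edgeR). Grik3, with a difference of -2.04 (SE 0.410, adjusted p = 0.0384 by edgeR), was lower in both pregnant libraries of Vip nuclei and higher in both of other Adarb2 nuclei.

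The synaptic adhesion gene Il1rapl2 differed by -3.07 (SE 0.386, adjusted p = 0.0455 by edgeR), at 107, 165, 80.0 and 30.4 CPM in Vip and 17.6, 64.4, 157 and 106 CPM in other Adarb2 nuclei. Within neither class was it called. Its log2 fold change was -1.31 (SE 0.539, adjusted p = 0.917 by edgeR) in Vip and 1.64 (SE 0.740, adjusted p = 0.902) in other Adarb2 nuclei. In Vip nuclei 2 of them held 113 of its 134 UMIs in non-pregnant replicate 1 and 146 of 180 in non-pregnant replicate 2. The 2 richest Vip nuclei held 55 and 16 of its 77 UMIs in pregnant replicate 1 and 11 and 9 of 31 in pregnant replicate 2. Vcan differed by 3.29, resting on the single nuclei described. Without the 2 richest nuclei of each gene in both classes, Cdh9, Cdh12 and Il1rapl2 kept an adjusted p of 0.0185, 1.03e-05 and 3.56e-09 by edgeR, at differences of -0.996, -1.06 and -3.65. The other 5 lost the call, Grik3 at -2.05, Satb1 at -1.52 and Unc13c at -3.95, and Vcan and Kctd8 at the smaller differences of 1.88 and -1.28. Il1rapl2 also kept its call without any single library, Cdh9 lost it without non-pregnant replicate 1 (difference -1.17, adjusted p = 0.0961 by edgeR), and Cdh12 lost it without either non-pregnant library or pregnant replicate 1 (adjusted p = 0.254, 0.157 and 0.124, at differences of -1.04, -1.26 and -0.82). Satb1 lost it without either non-pregnant library or pregnant replicate 2 (adjusted p = 0.627, 0.0665 and 0.313, at -1.41, -2.26 and -1.65). Kctd8 lost it without non-pregnant or pregnant replicate 2 (adjusted p = 0.997 and 0.3327 by edgeR, at -1.40 and -1.62) and Vcan without either non-pregnant library (0.0572 and 0.0769, at 3.31 and 3.26). Grik3 lost it without any 1 of the 4 libraries (adjusted p = 0.127 to 0.539, at -2.31 to -1.76). Against Sst nuclei the second gene was Lrrc4c, netrin-G ligand 1, which organises excitatory synapses. It rose in Sst nuclei from 386 and 322 to 666 and 780 CPM (log2 fold change 1.03, SE 0.122, adjusted p = 2.50e-07 by edgeR) and stood at 3252, 3317, 3161 and 3010 CPM in Vip nuclei, a difference of -1.13 (SE 0.149, adjusted p = 0.00455) that held without any single library.

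**Figure D5:**
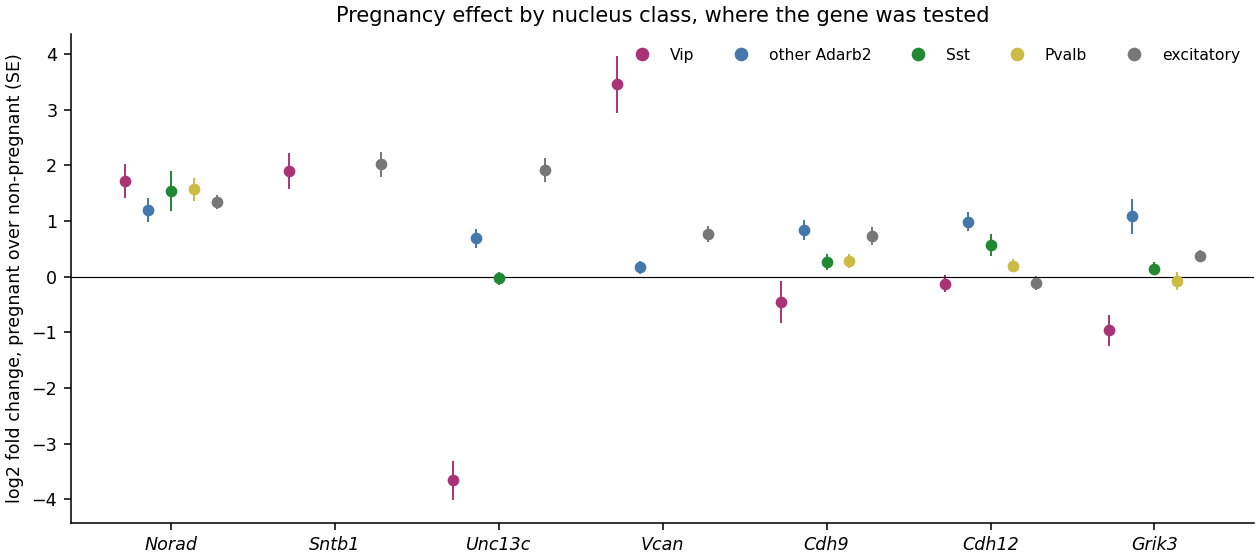
Pregnancy effect (log2 fold change, with its SE) for 7 genes in 5 classes of nuclei, where the gene passed the filter. Norad lies between 1.19 and 1.72 in all 5 classes, whereas Unc13c is at -3.66 in Vip and 0.69 in other Adarb2 nuclei and Cdh12 at -0.13 and 0.99.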

How the data were processed

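The authors deposited whole-number counts of UMIs per gene and barcode for 33696 genes in 4 libraries of nuclei from mouse cortex. The tool listed is Cell Ranger 10.0.0 and the build GRCm39, per the submitters' processing notes; settings are not given in the sources used here. A 3' kit counts transcript ends, so levels are not scaled by length, and free RNA was not subtracted here.

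From these, raw counts were summed per library over the nuclei of each class and tested with edgeR 4.0.16 (R 4.3.3, TMM, filterByExpr with a minimum count of 10, robust quasi-likelihood test, Benjamini-Hochberg over all genes tested, called under 0.05). The method was tested on simulated library sums. These did not model UMIs concentrated in single nuclei, so that test does not cover such genes. DESeq2 1.42.0, another normalisation, no filter, other thresholds, thinning, equal numbers of nuclei, single libraries left out and a replicate block were alternatives. Doublets stayed in, and an alternative left out the top 5% of Scrublet scores (scanpy 1.11.5) in each library. Levels across classes are plain CPM, those beside a test TMM-normalised CPM. Other Adarb2 nuclei had no Vip UMI, Pvalb nuclei at least 2 Pvalb UMIs, and excitatory nuclei at least 5 Slc17a7 UMIs. Sst and Pvalb nuclei had at most 1 Vip and 4 Adarb2 UMIs.

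Members, lists and classes were chosen with earlier results of these data known. Named are the called genes, the rule genes, Prlr, Esr1, Pgr, Oxtr and Nr3c1, genes called in a class difference, and of each list up to 4 members with the smallest p and up to 4 with the highest level; others are named as single features chosen after their values were seen. A few named genes are not reported here.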

Additional observations from a re-analysis of the deposited data

Results flagged for a closer look

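The pregnancy effect differed between Vip nuclei and another interneuron class, by edgeR's test of the difference, for 11 pairs of gene and class. Against other Adarb2 nuclei the log2 fold change in Vip nuclei minus that in the other class was -4.36 for Unc13c, 3.29 for Vcan, -1.35 for Cdh9, -1.14 for Cdh12, -1.85 for Satb1, -2.05 for Kctd8, -2.04 for Grik3 and -3.07 for Il1rapl2. Against Sst nuclei it was -3.65 for Unc13c and -1.13 for Lrrc4c, and against Pvalb nuclei -7.23 for Unc13c. Groups of 2 libraries are too small to single out a library that stands apart.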

How the results depend on the processing

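The 2 libraries per group limit every test, and sums of 83 to 122 nuclei mean that single nuclei can hold most of a gene's UMIs. Genes called between pregnant and non-pregnant Vip nuclei numbered 4 with the other normalisation, with Adarb2 at 10 or more and without the highest doublet scores; they numbered 1 with DESeq2, with Vip at 1 or more, with equal numbers of nuclei and after thinning, 7 with Vip at 5 or more and 16 without a filter. With the replicate block, 9 genes were called (6 rose, 3 fell), although the labels do not say that numbers pair libraries, and deviations of same-numbered libraries did not correlate over genes (r = -0.011). Alternatives added after seeing the data called 2 genes with no Slc17a7 UMI and 0 without nuclei rich in other types' markers, without each gene's richest nucleus (481 at an unadjusted p under 0.05) and without its 2 richest. Without single libraries, in fits where a lone library is assumed to vary like the others, 1 to 44 genes were called (1 without either non-pregnant library, 23 without pregnant replicate 1, 44 without pregnant replicate 2). Differences between classes gave 20, 27 and 30 calls without a filter against other Adarb2, Sst and Pvalb nuclei, 3 to 13, 9 to 22 and 2 to 60 without single libraries, and 29 and 4 with Vip at 5 or more against other Adarb2 and Pvalb nuclei; without the 2 richest nuclei 0 were called against Pvalb nuclei. Signs turned for the share of kept nuclei (0.0613 points under the thinned rule; -0.393 to 0.0638 without single libraries), the share of inhibitory nuclei (0.431; -3.19 to 0.885) and the median UMIs (-2873 to 306). They turned for Calb2 (-2.81 points without thinning; -2.89 to 5.50 without single libraries), Cck (-1.59 without thinning; -0.135 to 8.87), Crh (2.53 with Vip at 5 or more; -11.97 to 6.20), Tac2 (-0.135 to 3.49) and Npy2r (-3.52 to 0.427). Chat kept its direction (-7.58 to -5.84 points without single libraries). Pde1a reversed to -1.33 without pregnant replicate 1 and was 0.90 without pregnant replicate 2. The cause of these changes was not tested.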
